A study of Drosophila melanogaster with 4 samples.

Results

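The genes of synaptic release described here are *unc-13*, *Rop*, *Syx1A*, *Snap25*, *nSyb*, *Syt1*, *cac*, *brp*, *VGlut* and *elav*. They were listed by name as genes of neurotransmitter release, with *elav* as a marker of neurons, and are 10 of the 13494 genes in the files. *unc-13* lies on chromosome 4 and the other 9 lie elsewhere. RNA of whole larvae in the third instar was sequenced in 2 libraries of HP1a mutant larvae and 2 libraries of wildtype larvae, labelled as duplicate biological samples. The mutant larvae carried the alleles 04 and 05 of *Su(var)205*, the gene of the heterochromatin protein HP1a, and were picked from a cross of 2 balanced stocks by their lack of GFP. The wildtype larvae were of the Oregon R stock, so that the lack of HP1a and the background of the stocks cannot be told apart. All stocks were kept on cornmeal medium at 25°C and 70% humidity. The comparison asks how the loss of HP1a changes the RNA level of these genes, with particular interest in chromosome 4, which is packaged with HP1a along most of its length.

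At a synapse, vesicles filled with transmitter dock at the active zone of the presynaptic membrane, are primed, and fuse with the membrane when calcium enters the terminal. Fusion is driven by SNARE proteins, 1 on the vesicle (nSyb in neurons of the fly) and a pair on the plasma membrane (Syx1A and Snap25), which zip together. Rop, of the Sec1/Munc18 family, binds Syx1A, and Unc-13 primes vesicles by helping Syx1A to enter the SNARE complex. Syt1 is the calcium sensor of fast release, cac the channel through which the calcium enters, and brp a large scaffold protein that holds the channels in place. VGlut loads vesicles with glutamate, the transmitter of larval motor neurons, and elav is an RNA-binding protein of neurons.

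The values are FPKM, fragments scaled for the length of the transcript and the number of fragments mapped, summed per gene over its RefSeq rows (30 rows for the 10 genes). The bounds that Cufflinks gives beside each FPKM, summed over all rows with status OK, imply between 7320733 and 7656033 fragments per library. These totals can overcount, because rows with a tiny share of their gene were kept in them. For the members, rows under 1% of the gene were left out of the fragment numbers below. *Su(var)205* itself stood at 27.8 and 20.2 FPKM in the HP1a mutant, against 125 and 137 FPKM in wildtype. The typical gene was lower in the mutant too, with a median FPKM over the 9404 genes tested of 8.36 and 7.05 in the mutant libraries and 14.2 and 15.01 in the wildtype libraries. On the log2(FPKM + 1) scale, on which all log2 fold changes below are given, the median gene differed by -0.84. Of the genes tested, 34.6% passed the test as lower in the mutant and 7.02% as higher (limma with Benjamini-Hochberg adjustment, FDR 0.01). When the libraries were rescaled to the same median, the median gene differed by -0.02, and 10.3% of genes passed as lower and 12.6% as higher.

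*unc-13*, *elav* and *Syt1* fell in the HP1a mutant, and no member rose. These are 3 of the 7 members that could be tested, to be read beside the 34.6% of all genes that fell. The median log2 fold change of the 7 was -0.83, as low as that of the median gene. After rescaling, *unc-13* was the only member to pass, at -1.17 (SE 0.16, adjusted p = 0.00773, limma), and after quantile normalization it was at -0.88 and missed the threshold (adjusted p = 0.0151). With no filter on low values *unc-13* still passed (adjusted p = 0.00445), while *Syt1* and *elav* narrowly did not (adjusted p = 0.0110 and 0.0104). Without wildtype replicate 1 or wildtype replicate 2, no gene in the files passed, and the adjusted p of *unc-13* was 0.0359 and 0.0382. The other 3 members could not be tested, because the test needed the status OK in every library. Cufflinks gave the status LOWDATA instead for *nSyb* in both mutant libraries and for *brp* and *cac* in all 4 libraries. *brp* and *cac* also lay under the cutoff on low values.

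In 6 of the 7 tested members both mutant libraries lay below both wildtype libraries, and *Syx1A* was the exception. Among all genes tested, 69.1% had this order. The 3 untested members had it too, on values with LOWDATA. RNA was taken from whole larvae, so fewer neurons and less RNA per neuron cannot be told apart in any of these values.

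**Figure D1:**
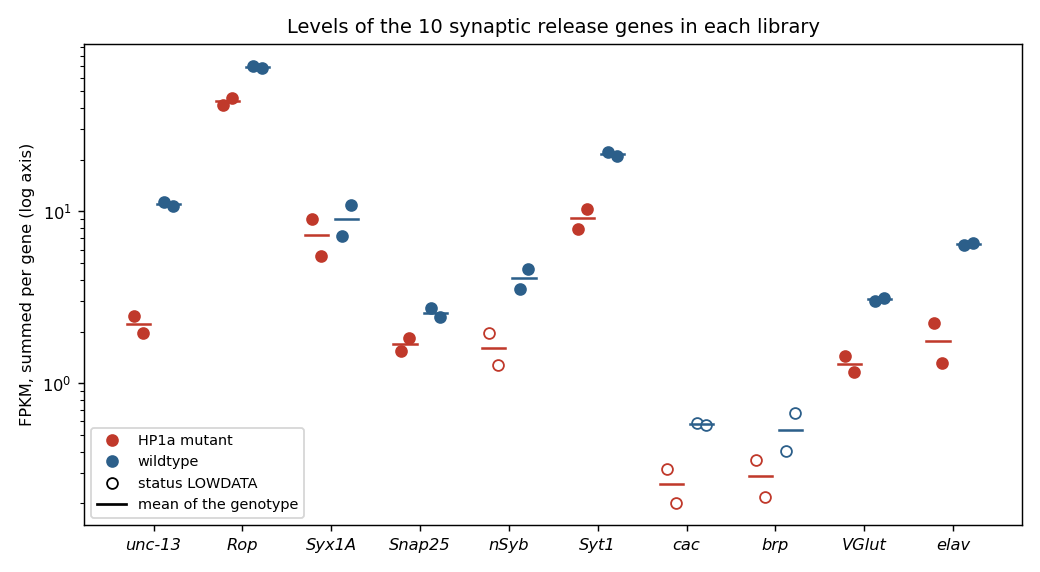
FPKM of the 10 synaptic release genes, summed per gene, on a log axis. Each point is a library (HP1a mutant in red on the left, wildtype in blue on the right), each line is the mean of a genotype, and open points have the status LOWDATA. The widest gap is that of *unc-13*, at 1.95 and 2.45 in the mutant against 10.7 and 11.4 in wildtype, and the points of *Syx1A* overlap.

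The priming factor *unc-13* had 2.45 and 1.95 FPKM in the HP1a mutant libraries, against 11.4 and 10.7 FPKM in the wildtype libraries. The means were 2.20 ± 0.35 FPKM in the mutant and 11.1 ± 0.49 FPKM in wildtype (SD, n = 2 each), a ratio of 0.199. Thus the wildtype mean was 5.03 times the mutant mean, and the gap between the genotypes was many times wider than the gap between replicates. The log2 fold change was -1.92 (SE 0.18, 95% interval -2.39 to -1.45, adjusted p = 0.00273, limma). The implied number of fragments behind these values was 211 and 161 in the mutant and 906 and 869 in wildtype, so that *unc-13* was measured with more fragments than most of the other members. Among all genes tested, 15.9% had a lower log2 fold change.

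The locus of *unc-13* spans chromosome 4, 891551 to 925419, on the minus strand (genome Release 5), and the files hold 3 RefSeq rows for it. The row NM_166794 ends at 914179, so that its 5′ end lies inside the locus of the other rows, NM_143692 and NM_166793, which run to 925419. NM_143692 had 0.554 and 0.822 FPKM in the mutant and 3.16 and 4.196 FPKM in wildtype. For NM_166794 the values were 1.18 and 0.679 FPKM in the mutant and 4.62 and 3.60 FPKM in wildtype. NM_166793 had 0.712 and 0.451 FPKM in the mutant and 3.65 and 2.93 FPKM in wildtype. Every row was thus lower in both mutant libraries, with ratios of the genotype means of 0.187 for NM_143692, 0.227 for NM_166794 and 0.177 for NM_166793.

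Taken singly, the rows are estimated less firmly than their sum, since Cufflinks must divide reads of shared exons among them. NM_143692 and NM_166794 had log2 fold changes of -1.47 (SE 0.27, adjusted p = 0.0168) and -1.41 (SE 0.28, adjusted p = 0.0197) in limma, and neither passed the FDR of 0.01. The row NM_166793 lay under the cutoff on low values. Over all members, 10 rows were tested and 0 passed, 5 of them with an unadjusted p under 0.05, whereas 14.7% of all 12405 rows tested passed as lower.

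**Figure D2:**
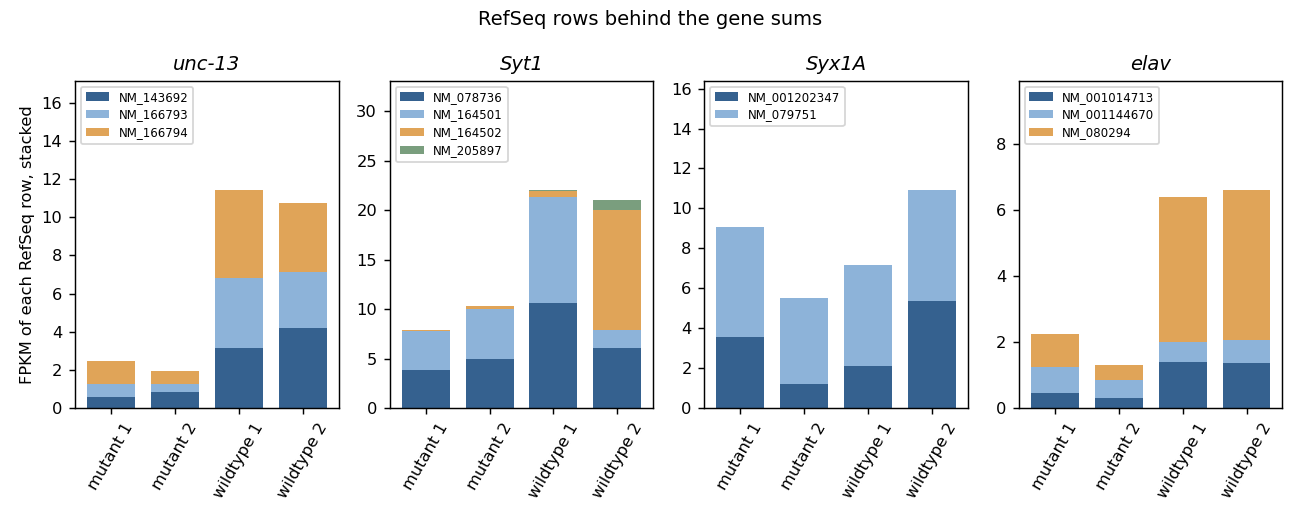
FPKM of each RefSeq row, stacked to the gene sum, for *unc-13*, *Syt1*, *Syx1A* and *elav* in the 2 HP1a mutant libraries and the 2 wildtype libraries. All rows of *unc-13* shrink together in the mutant, the rows of *Syt1* are divided differently in wildtype library 2, and in *elav* the row NM_080294 (4.38 and 4.53 in wildtype) accounts for most of the wildtype bar.

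On chromosome 4, *unc-13* ranked 5 from the lowest of the 62 genes tested. Of these, 29 (46.8%, beside 34.6% of all genes) passed as lower and 3 as higher, with a median log2 fold change of -1.03. The balance turned with the scaling, to 5 lower and 7 higher after rescaling (median -0.20) and 5 lower and 6 higher after quantile normalization (median -0.38). That of all genes turned too, to 10.3% lower and 12.6% higher after rescaling. After quantile normalization, 909 of all 9404 genes were lower and 1045 higher. By its wildtype level *unc-13* ranked 48 of 62, so most genes of the chromosome were more abundant. The nearest tested genes on either side were *Gyf*, at 18.1 and 16.0 FPKM in the mutant against 31.8 and 31.1 FPKM in wildtype, and the translation initiation factor *eIF4G1*. *Gyf* narrowly missed the threshold, with a log2 fold change of -0.85 (adjusted p = 0.0108, limma). *eIF4G1* had 66.3 and 38.3 FPKM in the mutant and 61.8 and 64.7 FPKM in wildtype, and the genotypes overlapped. No test compared *unc-13* with the genes beside it.

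Further out, *Sox102F*, a transcription factor of the Sox family, had 0.474 and 0.580 FPKM in the mutant and 4.12 and 3.92 FPKM in wildtype, a log2 fold change of -1.72 (adjusted p = 0.00358, limma), its mutant level lying far under the cutoff on low values. *4E-T*, whose product binds the cap-binding protein eIF4E, was at 10.3 FPKM in both mutant libraries and at 29.9 and 30.2 FPKM in wildtype, with a log2 fold change of -1.46 (adjusted p = 0.00308, limma). Both genes fell, as did *MED26* beyond *Sox102F*, whereas *fuss* beyond *4E-T* had an adjusted p of 0.0104.

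**Figure D3:**
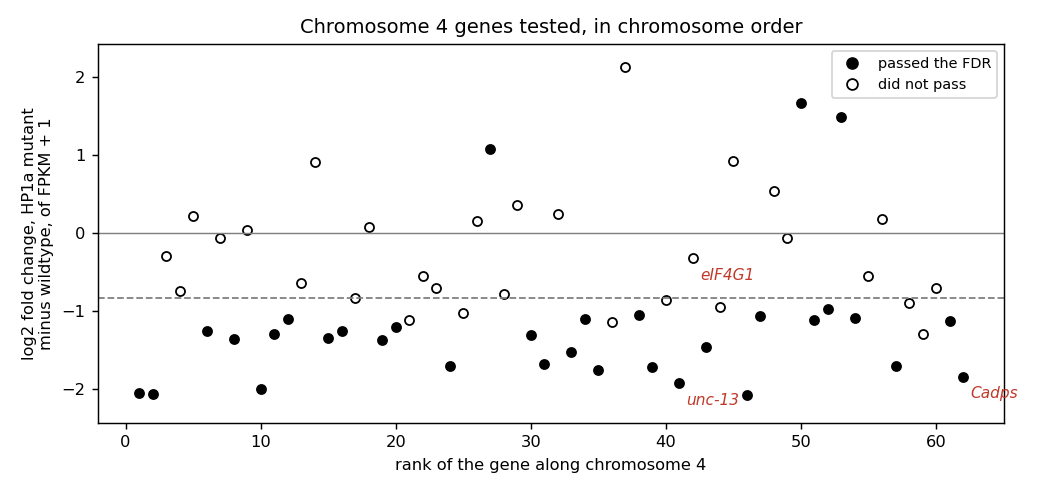
Log2 fold change (HP1a mutant minus wildtype, of FPKM + 1) of the 62 chromosome 4 genes tested, ordered along the chromosome. Filled points passed the FDR of 0.01, and the dashed line is the median of all genes tested. *unc-13* (-1.92) and *Cadps* (-1.84) are among the lowest points, and *eIF4G1* beside *unc-13* is at -0.32.

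The genes whose values over the 4 libraries were most like those of *unc-13* lay on other chromosomes, as do all but 62 of the 9404 genes tested. Likeness was measured as the Euclidean distance between the log2(FPKM + 1) values of the 4 libraries, each gene centred on its own mean. The 5 nearest genes were *Hecw* (X, distance 0.05), *danr* (3R, 0.05), *CG15468* (X, 0.07), *blot* (3L, 0.08) and *rod* (3R, 0.08). Of these, *danr*, *CG15468* and *rod* were tested because of their wildtype level, their mutant values lying under the cutoff on low values. *Hecw*, for example, had 2.51 and 2.06 FPKM in the mutant and 11.9 and 10.7 FPKM in wildtype. With 4 libraries, the distance reflects mainly the size of the genotype difference, which was between -1.88 and -1.98 on the log2 scale for these 5 genes.

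Of *Rop* and the neuronal SNARE genes among the members, none that could be tested (*Rop*, *Syx1A* and *Snap25*) passed. *Rop* (chromosome 3L) was the most abundant member in both genotypes, at 41.8 and 45.8 FPKM in the mutant and 70.3 and 68.1 FPKM in wildtype. The genotypes did not overlap, but the log2 fold change of -0.65 (SE 0.16, adjusted p = 0.0224, limma) did not pass, and it became 0.26 after rescaling (adjusted p = 0.337). *Rop* is used in secretion by many cells of the fly besides neurons. Its locus overlaps that of *Ras64B* on the opposite strand, and whether reads were assigned by strand is not stated.

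*Syx1A* (3R), the plasma membrane syntaxin, had 9.09 and 5.49 FPKM in the mutant and 7.17 and 10.9 FPKM in wildtype. Its values scattered widely within each genotype and the genotypes overlapped. The log2 fold change was -0.29, with a 95% interval from -1.15 to 0.58 (adjusted p = 0.460, limma), so that neither a clear fall nor a modest rise lies outside the interval. Without mutant replicate 2 the log2 fold change was 0.032, and after rescaling it was 0.53 (adjusted p = 0.162). Most of the scatter lay in the row NM_001202347, at 3.55 and 1.22 FPKM in the mutant and 2.10 and 5.38 FPKM in wildtype, while NM_079751 was at 5.54 and 4.27 FPKM in the mutant and 5.07 and 5.54 FPKM in wildtype. The locus overlaps *eIF4EHP* on the same strand, so that reads of the overlap could count for either gene.

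*Snap25* (3L), the second plasma membrane SNARE, stood at 1.55 and 1.85 FPKM in the mutant and 2.73 and 2.42 FPKM in wildtype. The genotypes did not overlap, on 27 and 31 implied fragments in the mutant and 44 and 40 in wildtype. The log2 fold change was -0.41 (SE 0.20, adjusted p = 0.130, limma), with a 95% interval from -0.94 to 0.12, and it was 0.22 after rescaling and 0.77 after quantile normalization (adjusted p = 0.462 and 0.0475).

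For the vesicle SNARE *nSyb* (3L), the summed values were 1.95 and 1.27 FPKM in the mutant and 3.52 and 4.64 FPKM in wildtype. The mutant values come from rows with the status LOWDATA, each with a lower bound of 0, and the wildtype values rest on 35 and 48 implied fragments. Fitted with genes of any status, *nSyb* had a log2 fold change of -0.96 and did not pass (adjusted p = 0.0253, limma).

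The broadly expressed relatives of these SNAREs gave a scale for the neuronal genes. *Syb*, the synaptobrevin of most cells, was at 119 and 142 FPKM in the mutant and 186 and 175 FPKM in wildtype, and *Snap24* was at 35.2 and 31.0 FPKM in the mutant and 46.5 and 50.5 FPKM in wildtype. Neither passed, with log2 fold changes of -0.47 and -0.54 (adjusted p = 0.0746 and 0.0430, limma). *Syx4*, another syntaxin of the plasma membrane, went the other way and rose, with 8.67 and 9.80 FPKM in the mutant against 2.03 and 2.64 FPKM in wildtype (log2 fold change 1.62, SE 0.19, adjusted p = 0.00377, limma). It also rose after rescaling and after quantile normalization.

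The calcium sensor *Syt1* (2L) had 7.90 and 10.4 FPKM in the mutant and 22.0 and 21.1 FPKM in wildtype. The mutant mean was 0.424 of the wildtype mean and the replicates were close in wildtype, with 262 and 331 implied fragments in the mutant and 673 and 624 in wildtype. *Syt1* fell by 1.17 on the log2 scale (SE 0.19, adjusted p = 0.00775, limma), which is 0.33 below the median gene, and after rescaling it did not pass (-0.30, adjusted p = 0.372).

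The rows of *Syt1* cannot be read singly. NM_164502 was at 0.146 and 0.302 FPKM in the mutant and at 0.694 and 12.1 FPKM in wildtype, where it thus held 3.15% of the gene in 1 library and 57.3% in the other. NM_164501 was the reverse, at 3.88 and 5.05 FPKM in the mutant and 10.7 and 1.89 FPKM in wildtype. The sums of the rows, in contrast, agreed between the wildtype replicates.

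Of the other synaptotagmins, *Syt4* (3R) was tested. It had 1.33 and 1.10 FPKM in the mutant and 6.81 and 6.56 FPKM in wildtype, and it fell by 1.80 on the log2 scale (SE 0.18, adjusted p = 0.00302, limma). It was tested because of its wildtype level, its mutant mean alone lying under the cutoff on low values. *Syt4* passed after rescaling (-1.14, adjusted p = 0.00941) but not after quantile normalization (-0.63, adjusted p = 0.0444). *Syt7*, on chromosome 4, was at 0.372 and 0.352 FPKM in the mutant and 0.961 and 1.14 FPKM in wildtype, too low to be tested.

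The calcium channel *cac* (X) and the scaffold *brp* (2R) were the lowest members. *cac* was at 0.318 and 0.201 FPKM in the mutant and 0.584 and 0.570 FPKM in wildtype, and *brp* at 0.358 and 0.219 FPKM in the mutant and 0.406 and 0.668 FPKM in wildtype. All 4 libraries had the status LOWDATA for both genes and each of their rows had a lower bound of 0, so the order of the genotypes carries no weight. When every gene was fitted whatever its level and status, the log2 fold changes were -0.33 for *cac* and -0.25 for *brp* (adjusted p = 0.0605 and 0.196, limma).

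The glutamate transporter *VGlut* (2L) had 1.44 and 1.16 FPKM in the mutant and 3.00 and 3.15 FPKM in wildtype. The replicates were close, on 67 and 52 implied fragments in the mutant and 129 and 139 in wildtype. The log2 fold change was -0.83 (SE 0.20, 95% interval -1.35 to -0.30, adjusted p = 0.0205, limma), equal to that of the median gene. *VGlut* passed the cutoff on low values through its wildtype level, as its mutant mean alone lay under the cutoff, and its log2 fold change was -0.22 after rescaling and 0.38 after quantile normalization.

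The neuronal marker *elav* (X) had 2.24 and 1.31 FPKM in the mutant and 6.38 and 6.59 FPKM in wildtype. The mutant replicates differed more than the wildtype ones, on 50 and 28 implied fragments in the mutant and 135 and 143 in wildtype. *elav* fell by 1.45 on the log2 scale (SE 0.23, adjusted p = 0.00751, limma), 0.62 below the median gene. After rescaling the difference was -0.76 and did not pass (adjusted p = 0.0415).

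The rows of *elav* differed. NM_080294 was at 1.01 and 0.453 FPKM in the mutant and 4.38 and 4.53 FPKM in wildtype, with a log2 fold change of -1.68 (adjusted p = 0.0135, limma). In contrast, NM_001144670, which has the same first and last position, overlapped between the genotypes. It was at 0.787 and 0.561 FPKM in the mutant and 0.606 and 0.711 FPKM in wildtype. These values rest on 17 and 12 implied fragments in the mutant and 12 and 14 in wildtype. The remaining row, NM_001014713, was at 0.444 and 0.300 FPKM in the mutant and 1.39 and 1.36 FPKM in wildtype. Cufflinks must divide reads of shared exons among the rows, so the rows are estimated less firmly than their sum. *arg* overlaps the locus on the opposite strand. The difference between the rows was not tested.

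Of the relatives of *elav*, *fne* (X) was at 0.941 and 0.486 FPKM in the mutant and 3.12 and 2.47 FPKM in wildtype and was too low to be tested. *Rbp9* (2L) was far more abundant, at 24.5 and 35.6 FPKM in the mutant and 30.8 and 32.5 FPKM in wildtype, with overlapping genotypes and a log2 fold change of -0.10 (adjusted p = 0.726, limma). *Rbp9* is known to be expressed in the ovary as well as in neurons.

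**Figure D4:**
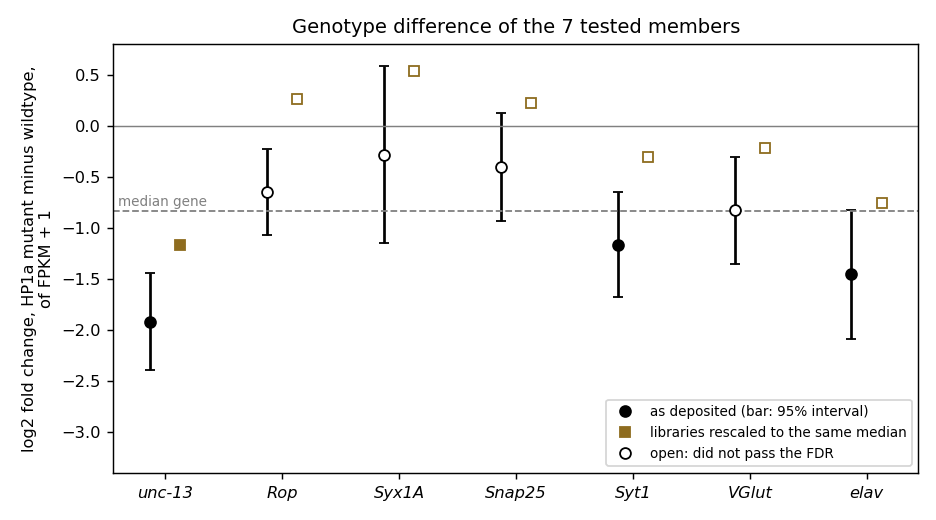
Log2 fold change (HP1a mutant minus wildtype, of FPKM + 1) of the 7 tested members. Circles give the deposited values with 95% intervals, squares the libraries rescaled to the same median, filled symbols passed the FDR of 0.01, and the dashed line is the median gene (-0.84). *unc-13* is the one gene filled in both (-1.92 and -1.17), and *Rop*, *Syx1A* and *Snap25* change sign with rescaling.

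Ordered by level, FPKM being per length of transcript, the mutant ran from *Rop* and *Syt1* through *Syx1A*, *unc-13*, *elav*, *Snap25*, *nSyb* and *VGlut* to *brp* and *cac*. The ranges of the replicates overlapped between *Syt1* and *Syx1A*, along the whole run from *unc-13* to *VGlut*, and between *brp* and *cac*. In wildtype the order was *Rop*, *Syt1*, *unc-13*, *Syx1A*, *elav*, *nSyb*, *VGlut*, *Snap25*, *cac* and *brp*. Here only *unc-13* and *Syx1A*, and *cac* and *brp*, overlapped with each other as neighbours. Thus *unc-13* stood beside *Syx1A* in wildtype and beside *elav* in the mutant.

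Further presynaptic genes were taken from 5 lists (fusion regulators, active zone scaffold, calcium channel subunits, vesicle recycling, and transmitter synthesis and loading), chosen for their known roles. Of 57 genes, 56 were in the files and 25 could be tested. 9 (36%, close to the 34.6% of all genes) fell, 1 rose and 15 did not pass, and the median log2 fold change was -0.84, that of all genes. Among the 9, *comt*, *Cadps*, *Syt4* and *VGAT* were tested because of their wildtype level, their mutant means lying under the cutoff on low values. The count of 9 thus says nothing of the lists. After rescaling, 2 were lower and 2 higher, after quantile normalization 0 were lower and 2 higher, and with either wildtype library left out none passed as lower.

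Among the fusion regulators, 3 of 9 tested genes (33.3%, beside 34.6% of all genes) passed as lower. None of the 9 passed as higher, beside 7.02% of all genes. All 3 were tested because of their wildtype level, as their mutant means alone lay under the cutoff on low values, so the count says nothing of the list. *Cadps* (chromosome 4), which primes dense core vesicles that carry peptides, was at 1.77 and 1.32 FPKM in the mutant and 8.03 and 8.07 FPKM in wildtype (log2 fold change -1.84, SE 0.19, adjusted p = 0.00308, limma). *Cadps* ranked just after *unc-13* on chromosome 4, at 6 from the lowest, and together with *Syt4* it passed after rescaling (-1.14, adjusted p = 0.00871) but not after quantile normalization (-0.72, adjusted p = 0.0282). The third was *comt*, an NSF ATPase that takes spent SNARE complexes apart, at 1.49 and 1.74 FPKM in the mutant and 5.05 and 6.83 FPKM in wildtype (-1.40, SE 0.22, adjusted p = 0.00676, limma). *Csp*, a chaperone of the vesicle membrane, had 31.3 and 30.7 FPKM in the mutant and 31.0 and 30.4 FPKM in wildtype. Its log2 fold change of 0.01 had a 95% interval from -0.39 to 0.41.

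The active zone and calcium channel genes were mostly beyond reach. Of 8 scaffold genes 1 was tested, *Liprin-alpha*, at 6.09 and 4.27 FPKM in the mutant and 9.59 and 9.22 FPKM in wildtype, and it did not pass (log2 fold change -0.77, adjusted p = 0.0311, limma). None of the 5 further channel genes was tested. Their summed level was 4.85 and 3.17 FPKM in the mutant and 4.05 and 4.65 FPKM in wildtype.

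Of 13 vesicle recycling genes tested, 5 (38.5%, beside 34.6% of all genes) fell and 1 rose, while both after rescaling and after quantile normalization 0 were lower and 2 higher. *Rab5*, a GTPase of early endosomes, was at 46.2 and 53.8 FPKM in the mutant and 129.8 and 125 FPKM in wildtype (log2 fold change -1.34, SE 0.17, adjusted p = 0.00435, limma). The adaptor subunit *AP-2alpha*, at 14.2 and 14.8 FPKM in the mutant and 33.0 and 32.9 FPKM in wildtype, fell by 1.13 on the log2 scale (adjusted p = 0.00470, limma). After rescaling, *Rab5* was at -0.42 and *AP-2alpha* at -0.25, and neither passed (adjusted p = 0.186 and 0.311). *Amph*, which in the fly is known for its role at the T-tubules of muscle, rose, with 26.3 and 20.2 FPKM in the mutant against 8.26 and 10.01 FPKM in wildtype (1.25, SE 0.21, adjusted p = 0.00824, limma). *nwk*, an adaptor at nerve terminals, was at 2.86 and 2.27 FPKM in the mutant and 1.18 and 1.37 FPKM in wildtype and did not pass (0.64, adjusted p = 0.0503), though it did after rescaling (1.23, adjusted p = 0.00933).

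Of the transmitter genes, 2 of 10 were tested. The vesicular GABA transporter *VGAT* had 1.02 and 1.30 FPKM in the mutant and 4.08 and 3.81 FPKM in wildtype, and fell by 1.20 on the log2 scale (SE 0.19, adjusted p = 0.00756, limma), though its log2 fold change was 0.04 after quantile normalization. It too entered the test through its wildtype level, with a mutant mean under the cutoff. Tyrosine hydroxylase, *ple*, which serves dopamine synthesis in neurons and also cuticle hardening, was at 16.1 and 1.49 FPKM in the mutant and 123 and 86.4 FPKM in wildtype. Its replicates were far apart in the mutant, and it did not pass in spite of a log2 fold change of -4.00 (SE 0.97, adjusted p = 0.0228, limma).

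On the receiving side, none of the 6 postsynaptic genes tested passed, beside 34.6% of all genes as lower and 7.02% as higher. In limma, 2 of the 6 had an unadjusted p under 0.05, as did 6693 of all 9404 genes tested. In 3 of the 6 both mutant libraries lay below both wildtype libraries, the order of 69.1% of all genes tested, and in 2 (*GluRIIC* and *GluRIIE*) both lay above. The median log2 fold change was -0.21, and it was 0.51 after rescaling and 0.92 after quantile normalization. *GluRIIC*, a subunit that all larval neuromuscular glutamate receptors need, was at 4.31 and 2.87 FPKM in the mutant and 1.72 and 1.80 FPKM in wildtype (0.72, adjusted p = 0.0518, limma), and it passed as higher after rescaling (1.36, adjusted p = 0.00833). *GluRIIB*, at 1.53 and 1.16 FPKM in the mutant and 2.37 and 2.62 FPKM in wildtype, had the lowest log2 fold change of these genes (-0.58, adjusted p = 0.0630, limma).

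Genes of membrane fusion in all cells served for comparison, and all 24 could be tested. 6 (25%, beside 34.6% of all genes) fell, 1 rose and 17 did not pass, with a median log2 fold change of -0.71. After rescaling 0 were lower and 1 higher (median 0.13), and after quantile normalization 0 were lower and 1 higher (median -0.17). The lowest were *Syx17*, a syntaxin of autophagosomes, at 5.72 and 5.67 FPKM in the mutant and 19.0 and 20.1 FPKM in wildtype (-1.62, adjusted p = 0.00275, limma), and *Vamp7*, a late endosomal SNARE, at 28.0 and 35.3 FPKM in the mutant and 100.1 and 95.7 FPKM in wildtype (-1.61, adjusted p = 0.00377, limma). *Slh*, a Sec1 protein of the Golgi, had 0.134 FPKM in wildtype replicate 1 and 34.0 FPKM in wildtype replicate 2, and its log2 fold change of 1.44 did not pass (adjusted p = 0.479).

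**Figure D5:**
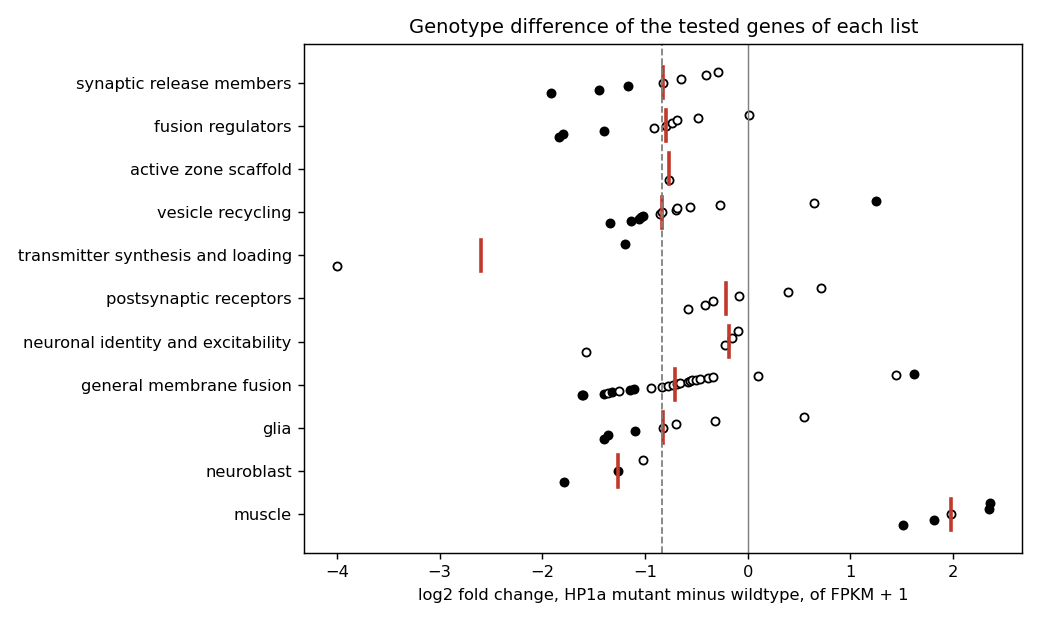
Log2 fold change (HP1a mutant minus wildtype, of FPKM + 1) of each tested gene, by list. Filled points passed the FDR of 0.01, red bars are list medians, and the dashed line is the median of all genes tested (-0.84). The members (median -0.83) lie around the dashed line, as do the fusion regulators (-0.80) and vesicle recycling genes (-0.84), and muscle genes lie far to the right (1.98).

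Markers of other cell types moved with the genotype as well, and their order in the libraries is to be read beside the 69.1% of all genes tested with both mutant libraries below both wildtype libraries. That share covers tested genes only, so the counts among tested markers are given in brackets. Of the 16 neuron markers, the members among them, 13 had this order (7 of 9 tested), with sums of 99.6 and 107.7 FPKM in the mutant and 173 and 177 FPKM in wildtype. *Rop* and *Rbp9*, which other cells use as well, made up most of these sums. The neuron markers besides the members came from a list of 15 neuronal identity and excitability genes. Of these 15, 10 had this order (3 of 4 tested) and 1 the reverse. None of the 4 passed in either direction, beside 34.6% of all genes as lower and 7.02% as higher. Their median log2 fold change was -0.185, against -0.84 for all genes, and 0.54 after rescaling. Of the 4, *Appl* had the largest fall, at 1.90 and 0.817 FPKM in the mutant and 5.44 and 6.24 FPKM in wildtype. Its log2 fold change was -1.57 (adjusted p = 0.0107, limma). *Appl* was tested because of its wildtype level, its mutant mean lying under the cutoff on low values. The other 3 lay between -0.22 and -0.10. Of the 10 glial genes, 9 had the order (6 of 7 tested). *Eaat1*, a glutamate transporter, was the exception at 9.98 and 16.4 FPKM in the mutant and 8.91 and 7.99 FPKM in wildtype. The glial genes summed to 174 and 192 FPKM in the mutant and 435 and 422 FPKM in wildtype, most of it *Gs2*, a glutamine synthetase, at 115.3 and 132 FPKM in the mutant and 331 and 322 FPKM in wildtype. The defining glial gene *repo* was at 0.900 and 0.731 FPKM in the mutant and 2.85 and 2.35 FPKM in wildtype, too low to be tested. Of the 7 glial genes tested, 3 (42.9%, beside 34.6% of all genes) passed as lower, and 0 after rescaling. 1 of the 3, *wrapper*, was tested because of its wildtype level, its mutant mean lying under the cutoff on low values. All 7 neuroblast genes had the order (3 of 3 tested), with sums of 9.45 and 6.76 FPKM in the mutant and 33.9 and 34.1 FPKM in wildtype. Of the 3 tested, 2 passed as lower, beside 34.6% of all genes, and 0 after rescaling. 1 of the 2, *mira*, was tested because of its wildtype level, its mutant mean lying under the cutoff on low values. The count thus says nothing of the list. In contrast, all 7 muscle genes (5 of 5 tested) were higher in both mutant libraries, the order of 1623 of the 9404 genes tested. The muscle genes summed to 11072 and 9604 FPKM in the mutant and 2116 and 2396 FPKM in wildtype. No marker was at 0 in every library. The part of these differences in the values of the members was not tested.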

How the data were processed

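The authors sequenced rRNA-depleted RNA of HP1a mutant and wildtype larvae (2 libraries each) and deposited, for each library, FPKM per RefSeq transcript with bounds and a status. Per the labels, TopHat and Cufflinks were used; their versions are not given in those sources used here. Coordinates are of genome Release 5; gene names came from RefSeq accessions of the Release 6 annotation. FPKM were summed per gene, leaving out 1220 rows without a gene and 241 rows with repeated accessions. Fragments were inferred from the bounds and cover counting error only. Genes with a mean log2(FPKM + 1) above 1.4, the cutoff in the study's methods, and status OK throughout were tested (limma 3.58.1, R 4.3.3, moderated test with trend, two-sided, Benjamini-Hochberg, FDR 0.01); sums and plots were made in Python 3.11.15. The count tools the study names were not used, because the values are FPKM. An exact permutation test of 2 against 2 cannot give a p under 0.333. The fit was tested on simulated data in which 200 of 9404 genes were lowered. It recovered 66.5% of them at a log2 change of -1 and 100% at -2, with 2 and 0 false calls. Unlike in these data, the median gene was not shifted there. Members and lists were chosen with earlier results of these data known. Named genes are the members, their relatives, listed chromosome 4 genes, the 5 genes most like *unc-13*, and from each list up to 2 with the largest rise and 2 with the largest fall; *comt*, *repo* and the neighbours of *unc-13* were named after their values were seen. Alternatives were other pseudocounts (0.1, 5), filters, scalings, variance models, rows and libraries, and a replicate block.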

Additional observations from a re-analysis of the deposited data

How the results depend on the processing

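Of the members, 3 fell in the fit as reported. With a pseudocount of 0.1 this became 2, as *elav* did not pass (adjusted p = 0.0109). With no filter on low values it became 1, as it did with no filter and any status (an alternative chosen after seeing the data, which takes in *brp* and *cac*), with rescaled libraries, with a replicate block and with the highest RefSeq row per gene, and it became 0 with quantile normalization (2 members at an unadjusted p under 0.05). Where 1 member was left, it was *unc-13*, except with the highest row, where it was *elav*. Leaving out a library gave between 0 and 3: with either wildtype library removed no gene passed, with 4690 genes without replicate 1 and 4593 without replicate 2 at an unadjusted p under 0.05, 4 members among them in both cases. The log2 fold change of *unc-13* was then -1.88 and -1.96 (adjusted p = 0.0359 and 0.0382), the lone library being assumed to vary like the mutant ones. The median of the members was -0.83, against -1.19 with a pseudocount of 0.1, -0.22 with rescaling and -0.31 with quantile normalization. The count of all genes passing as lower moved with the setting too. It was 3250 of 9404 as reported, 2852 with a pseudocount of 0.1, 966 with rescaling, 909 with quantile normalization and 2391 with the replicate block. With no filter it was 3114 of 12125, with no filter and any status 3266 of 13117, and with the highest row 2577 of 9241. After quantile normalization, 5025 of all 9404 genes had an unadjusted p under 0.05 in limma. Of the presynaptic list genes, 9 fell, against 2 with rescaling, 0 with quantile normalization, 4 with the replicate block, 5 with the highest row and between 0 and 11 with a library left out. The sign turned with rescaling for *Syx1A* (0.53), *Snap25* (0.22) and *Rop* (0.26), with quantile normalization for *Syx1A* (0.65), *Snap25* (0.77) and *VGlut* (0.38), and for *Syx1A* with a library left out, between -0.60 (without HP1a mutant replicate 1) and 0.032 (without HP1a mutant replicate 2). The causes were not tested, except that each rescaling moves the median gene toward 0 by construction. The replicate numbers share nothing else in the labels, and the deviations of same-numbered libraries correlated at 0.03 over genes. With 2 libraries per genotype, members under about 50 fragments (*Snap25*, *nSyb*, *elav* in the mutant) and those with LOWDATA set the limit of what these data can show.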
